A study of Mus musculus with 2 samples.

Results

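The genes described here are the chaperones, folding enzymes and stress sensors of the endoplasmic reticulum, the compartment in which a cell folds the proteins it secretes. They were chosen as the rows of the deposited feature lists whose symbol is among 34 given names, and their UMIs (unique molecular identifiers, each marking 1 captured RNA) were summed by cell class and library. All 34 were found, in 35 of 32285 rows, because Ddit3 is listed under 2 gene identifiers. The second Ddit3 row held 0 UMIs in every class, so the sum of both equals the first. The series holds 2 single-cell RNA libraries from mouse vein grafts, veins placed into the circulation. One is from conventional grafts and the other from No-Touch grafts. What sets No-Touch grafts apart is not stated in the labels; the name is used for veins taken with the tissue around them. The mice of both groups were C57BL6/J of 10 to 12 weeks, with no other genotype or treatment given. From both, live nucleated cells without surface CD45, the leukocyte antigen, were sorted after digestion with papain and then collagenase and dispase. The labels do not say how many animals or grafts were used. Each group is therefore 1 library, every difference below compares 2 libraries, and no test of the graft types is possible.

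A secreted protein enters the endoplasmic reticulum through the Sec61 channel, is glycosylated by oligosaccharyltransferase, and is held by chaperones such as BiP, calnexin and calreticulin while protein disulfide isomerases join its cysteines. Collagens also need helpers of their own, among them HSP47 and the prolyl isomerases. Proteins that fail to fold are pulled back to the cytosol and degraded. When unfolded protein accumulates, the sensors IRE1, PERK and ATF6 start the unfolded protein response, in which the factors XBP1, ATF4 and ATF6 raise the genes of folding and degradation, and in prolonged stress the factor CHOP. Fibroblasts, which lay down the collagen of the vessel's outer coat, plasma cells and endocrine cells are known for a heavy secretory load.

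Several of these genes share a regulatory sequence that the choice of members did not use, the endoplasmic reticulum stress response element, and the sequences are shown because the members that carry it are set apart below. The RefSeq promoters of the GRCm38.p6 build, from 250 bases before to 50 after each start, covered 29 of the 34 members. Hyou1, Manf, Fkbp10, Sec61a1 and Atf6 were not among them. The element ERSE, searched as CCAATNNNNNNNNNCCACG on both strands, was found in 8 of the 29 (27.6%) and in 37 of 27025 genes with such a promoter (0.137%). ERSE-II, searched as ATTGG and CCACG with 1 base of any kind between them, was found in 2 of the 29 (6.90%) and in 12 of all genes (0.0444%). The 8 letters TGACGTGG were found in the promoter of Txndc5 alone among the members, and in 0.714% of all genes. All 3 motifs hold CCACG or its reverse complement CGTGG, which alone was found in 79.3% of the members and 35.5% of all genes. A match describes letters and not a site in use.
Each sequence runs 5' to 3' on the strand of its gene, with the element in capitals, and on the other strand it reads as its reverse complement.
Hspa5, ERSE at chr2:34772020-34772048, gene on the + strand: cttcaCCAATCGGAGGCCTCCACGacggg
Hsp90b1, ERSE at chr10:86705633-86705661, gene on the - strand: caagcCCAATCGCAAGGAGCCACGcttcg
Pdia6, ERSE at chr12:17266486-17266514, gene on the + strand: agagaCCAATGAAAGGCGGCCACGgcgtg
Dnajc3, ERSE at chr14:118937822-118937850, gene on the + strand: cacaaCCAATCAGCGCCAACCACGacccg
Creld2, ERSE at chr15:88819515-88819543, gene on the + strand: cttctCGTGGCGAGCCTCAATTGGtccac
Herpud1, ERSE-II at chr8:94386372-94386392, gene on the + strand: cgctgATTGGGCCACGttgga
The Creld2 element is on the opposite strand, so its CCAAT stands as ATTGG at the right end. Calr, Canx and Syvn1 also hold ERSE, Hsp90b1 holds it a further time on the other strand, and Dnajb11 holds ERSE-II. The Hspa5 element begins 65 bases before the start.

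The deposited matrices hold 11899 conventional and 12450 No-Touch barcodes, of which 10217 and 10462 were kept after filters and removal of doublets. The median kept cell had 16607 conventional or 27457.5 No-Touch UMIs. Cells were gated to a class by marker genes that hold none of the 34 members, which placed 89.4% and 95% of them, and a class name means cells with those markers. Both libraries hold cells with leukocyte markers in spite of the sort. The female RNA Xist was at 23.2 to 559 CPM (defined below) in the conventional classes and at 0 to 0.309 in the No-Touch classes, while the Y-linked Ddx3y was at 62.0 to 116 and 111 to 198. The labels give no sex for the animals, and its part in any difference was not tested. Fibroblasts of the libraries lay mostly in different expression clusters. Of all barcodes, 22 occur in both libraries.

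Levels are given as CPM, the UMIs of a gene per 1000000 UMIs of a class in a library. Each UMI stands for the 3' end of 1 RNA, so levels were not divided by gene length. A class was described where a library held at least 50 of its cells, which gave 19 combinations of class and library. Pairs of values below name the conventional library first.

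Among the 34 members, Hspa5, which encodes BiP, the main chaperone that binds unfolded chains, had the highest CPM in each of the 19 combinations. Its level was 5486 and 5312 CPM in mononuclear phagocytes, 4357 and 5345 in pericytes, 4359.9 and 3869 in fibroblasts and 3618 and 2185 in contractile smooth muscle cells. It was 3629 and 2601 in blood endothelial cells, 2305 and 1569 in lymphatic endothelial cells, 2315 and 2769 in Schwann cells and 2671 and 1925 in neutrophils. Of the classes held by 1 library, mesothelial cells had 3908 and T or NK cells 1451. BiP RNA was thus highest in the phagocytes and the No-Touch pericytes and lowest in T or NK cells and No-Touch lymphatic cells, a span of 3.78-fold. The phagocyte level in the conventional library rests on 50 cells.

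The partners of BiP were at lower levels. Manf, a small luminal protein that binds BiP, ranged from 159 in conventional neutrophils to 591 CPM in conventional phagocytes. In the classes present in both libraries it was 587 and 499.8 in fibroblasts, 459.6 and 560.5 in pericytes, 431 and 263 in smooth muscle, 440.5 and 378 in blood endothelium, 312 and 208 in lymphatic endothelium, 388 and 522 in Schwann cells, 159 and 189 in neutrophils and 591 and 516 in phagocytes. Neutrophils were the lowest class for Manf in both libraries, and phagocytes, fibroblasts and pericytes were high. The J-domain proteins that send clients to BiP had other patterns. Dnajb9 was 115 and 121 CPM in fibroblasts, 117 and 151 in pericytes, 81.1 and 107 in smooth muscle, 119.6 and 101 in blood endothelium, 132 and 183 in lymphatic endothelium, 59.8 and 101 in Schwann cells, 225 and 122 in neutrophils and 102 and 83.8 in phagocytes, and 257 in mesothelial cells. Its highest levels were thus in mesothelial cells and conventional neutrophils, while neutrophils were the lowest class for most of the other partners. Dnajc3 was lowest in neutrophils (43.8 and 37.5) and highest in conventional fibroblasts (331). Dnajb11 ranged from 27.6 in No-Touch neutrophils to 144 CPM in conventional phagocytes.
Sdf2l1, which works with Dnajb11, was 63.6 and 60.6 CPM in fibroblasts, 39.7 and 78.4 in pericytes, 38.4 and 20 in smooth muscle, 40.2 and 52.3 in blood endothelium, 20.3 and 12.2 in lymphatic endothelium, 54.0 and 102 in Schwann cells, 11.6 and 7.89 in neutrophils and 97.7 and 116 in phagocytes, and 135 in T or NK cells. It had the widest span of the BiP group, 17.1-fold, with T or NK cells, phagocytes and No-Touch Schwann cells the highest. Hyou1, an exchange factor for BiP, was 28.2 and 29.2 CPM in fibroblasts, 25.5 and 41.6 in pericytes, 28.6 and 22.9 in smooth muscle, 30.1 and 29.0 in blood endothelium, 18.1 and 22.5 in lymphatic endothelium, 19.9 and 39.6 in Schwann cells, 19.9 and 17.7 in neutrophils and 41.9 and 46.6 in phagocytes, and 47.4 in the Pth-high cells. It stayed under 50 CPM in all 19 combinations. The lowest value of Sdf2l1 stands for 4 UMIs.

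**Figure D1:**
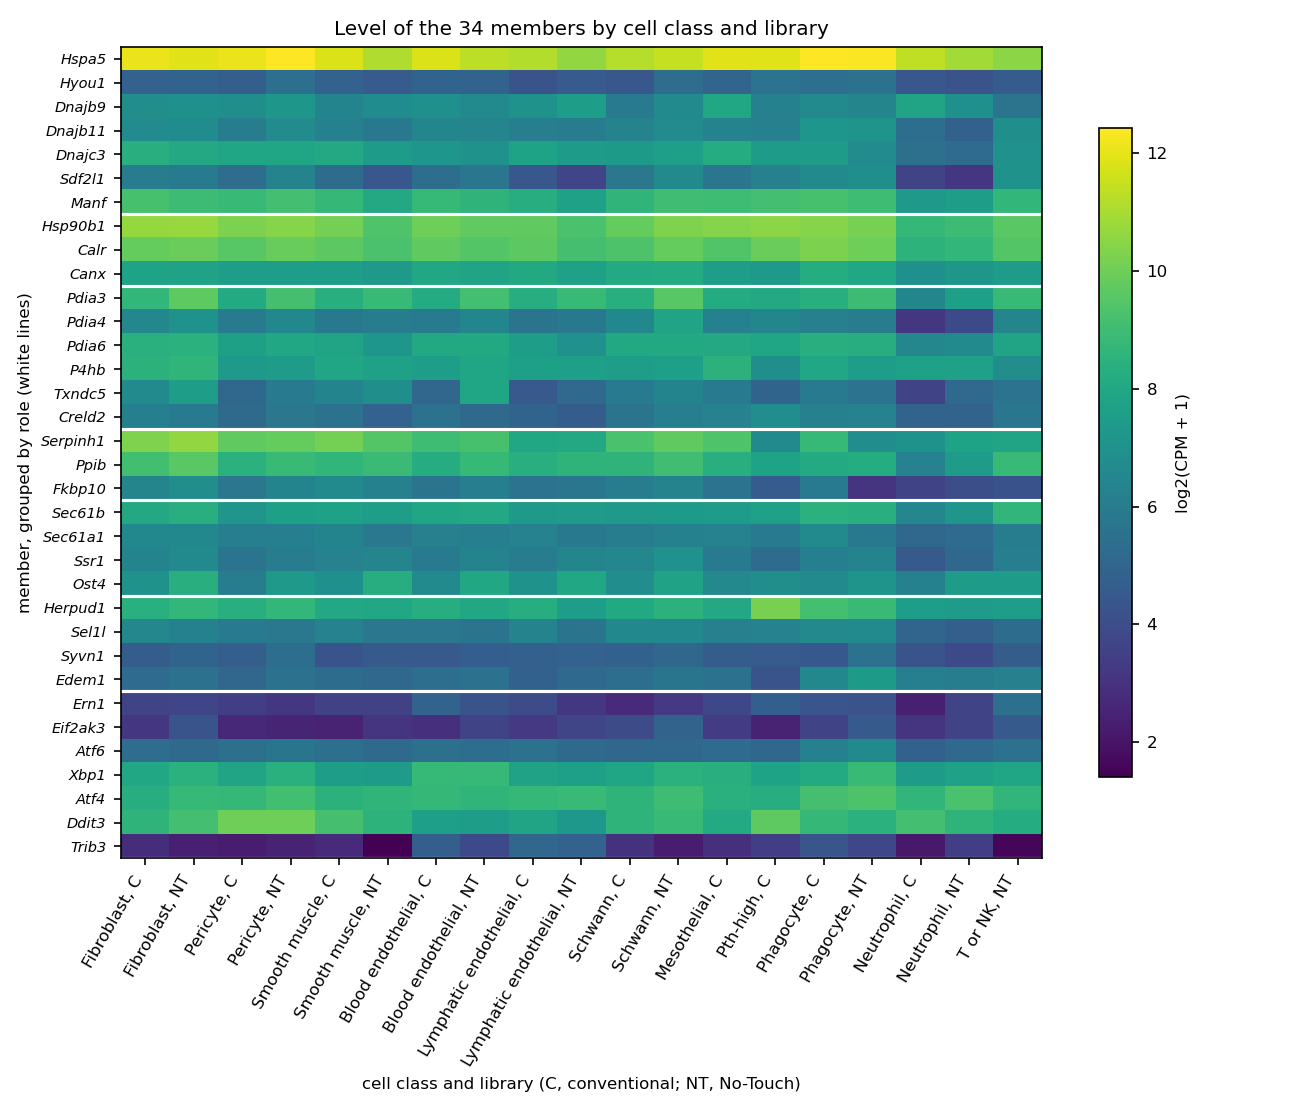
Heat map of log2(CPM + 1) for the 34 members (rows, grouped by role between white lines) in 19 combinations of cell class and library (columns; C, conventional; NT, No-Touch). Hspa5 is the brightest row throughout, Serpinh1 is bright in fibroblasts and mural classes, Herpud1 in Pth-high cells, and Ern1, Eif2ak3 and Trib3 are dark.

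Hsp90b1, the reticulum's own HSP90, ranked second by mean level, at 1644 and 1667 CPM in fibroblasts, 1220.0 and 1374 in pericytes, 1360.3 and 1139 in phagocytes and 1095 and 677 in smooth muscle. It was 1014 and 849 in blood endothelium, 853 and 607 in lymphatic endothelium, 889 and 1243 in Schwann cells and 432 and 499 in neutrophils, with 1476 in the Pth-high cells, 1385 in mesothelial and 766 in T or NK cells. Fibroblasts had the highest and neutrophils the lowest levels of it in both libraries. Calr, encoding calreticulin, a lectin that holds glycoproteins, was 1223 and 1015 in phagocytes, 898 and 964 in fibroblasts, 763 and 936 in pericytes, 791 and 613 in smooth muscle, 861 and 706 in blood endothelium, 803 and 580.0 in lymphatic endothelium, 653 and 901 in Schwann cells and 363 and 418 in neutrophils. Canx, the membrane-bound lectin calnexin, varied least among the 3 lectin and HSP90 members, from 121 to 298 CPM.

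Of the disulfide isomerases, Pdia3, the partner of calnexin and calreticulin, had the highest mean level. It was 420.3 and 819.9 CPM in fibroblasts, 318 and 744 in Schwann cells, 279 and 585 in pericytes, 294 and 566 in blood endothelium, 321 and 499 in phagocytes, 326 and 456 in smooth muscle, 307 and 448 in lymphatic endothelium and 86.3 and 197 in neutrophils. In each of these 8 classes the No-Touch value was the higher. Pdia6 had a mean of 235 and P4hb, which is also a subunit of the collagen prolyl hydroxylase, of 220.5 CPM, with fibroblasts the highest for both (335 and 347, and 359.8 and 389). Pdia4, an isomerase with several thioredoxin domains, was 90.4 and 134 CPM in fibroblasts, 58.0 and 93.7 in pericytes, 57.5 and 66.2 in smooth muscle, 58.6 and 87.9 in blood endothelium, 49.6 and 57.7 in lymphatic endothelium, 91.9 and 225 in Schwann cells, 8.22 and 13.8 in neutrophils and 72.1 and 65.5 in phagocytes. Txndc5, a further family member, was 97.0 and 185 CPM in fibroblasts, 33.5 and 59.1 in pericytes, 83.2 and 118 in smooth muscle, 32.2 and 242 in blood endothelium, 21.7 and 35.3 in lymphatic endothelium, 58.5 and 81.6 in Schwann cells, 11.6 and 35.5 in neutrophils and 58.1 and 47.8 in phagocytes. These 2 had the widest spans of the 34 members, 27.3-fold and 20.8-fold, with neutrophils the lowest for both and No-Touch Schwann and blood endothelial cells the highest. Creld2, a stress-induced protein of the reticulum, was highest in the Pth-high cells at 110.4 CPM and lowest in No-Touch lymphatic cells at 24.2.

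Of the collagen-folding members, Serpinh1, which encodes HSP47, a chaperone of procollagen, was 1260.2 and 1573 CPM in fibroblasts, 1116 and 701 in smooth muscle, 859 and 901 in pericytes, 608 and 853 in Schwann cells, 505 and 599 in blood endothelium and 254 and 266 in lymphatic endothelium. It was 673 in mesothelial cells and 102 in the Pth-high cells. In leukocytes it was 129 and 223 in neutrophils, 446 and 111 in phagocytes and 226 in T or NK cells. Its highest combination stood 15.4-fold above its lowest. Ppib, a prolyl isomerase, was 546 and 781 CPM in fibroblasts, 343 and 451 in pericytes, 401 and 477 in smooth muscle, 302 and 447 in blood endothelium, 318 and 379 in lymphatic endothelium, 383 and 535 in Schwann cells, 76.7 and 172 in neutrophils and 284 and 303 in phagocytes. Fkbp10, another prolyl isomerase that acts on collagen, was 83.8 and 115 CPM in fibroblasts, 54.2 and 82.2 in pericytes, 98.8 and 74.6 in smooth muscle, 49.4 and 71.2 in blood endothelium, 46.9 and 52.2 in lymphatic endothelium, 66.9 and 80.0 in Schwann cells, 11.6 and 15.8 in neutrophils and 62.8 and 7.67 in phagocytes. Fibroblasts were the highest class for Ppib in both libraries, and No-Touch fibroblasts and conventional smooth muscle for Fkbp10.

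RNA free in the droplets can add UMIs of Serpinh1 and of collagens to any class, and its part in the leukocyte values of Serpinh1 was not tested. Per 1000 collagen UMIs, neutrophils held 46.1 and 45.2 Serpinh1 UMIs, beside 52.0 and 38.9 in fibroblasts. Phagocytes held 75.3 and 36.3, and No-Touch T or NK cells 58.5. Blood endothelial cells held 125 and 101, above the fibroblast ratio in both libraries. In conventional phagocytes 3 of 50 cells carried 89.1% of the 192 Serpinh1 UMIs, and the 50 held 867 CPM of the 10 mural markers against 78.5 in the No-Touch ones. That Serpinh1 level therefore rests on 3 cells.

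The translocation and glycosylation members were of middle level. Sec61b, a subunit of the Sec61 channel, ranged from 89.0 in conventional neutrophils to 397 CPM in T or NK cells, while Sec61a1, the channel itself, was 91.8 and 93.5 CPM in fibroblasts, 70.4 and 71.1 in pericytes, 82.1 and 54.7 in smooth muscle, 71.7 and 71.5 in blood endothelium, 77.3 and 57.2 in lymphatic endothelium, 64.3 and 73.9 in Schwann cells, 33.6 and 37.5 in neutrophils and 102 and 57.2 in phagocytes. Ssr1, of the translocon-associated complex, ranged from 21.2 to 125, highest in No-Touch Schwann cells. Ost4, the smallest subunit of oligosaccharyltransferase, was 133 and 329.9 in fibroblasts, 123 and 304 in smooth muscle, 100.1 and 251 in blood endothelium, 132 and 248 in lymphatic endothelium, 109.9 and 215 in Schwann cells, 74.0 and 174 in neutrophils, 66.4 and 160.4 in pericytes and 97.7 and 138 in phagocytes. As with Pdia3, the No-Touch value was the higher in each class.

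Of the members that act in degradation, Herpud1, which links the degradation complex to the stress response, reached 1149 CPM in 156 conventional cells with high levels of Pth, the parathyroid hormone. The next highest combination was conventional phagocytes at 560.4, and fibroblasts were at 333 and 409. These Pth-high cells failed the check of their name, since their 10 leading genes hold 3 epithelial and 2 parathyroid markers, and only 9 such cells were in the No-Touch library. The gate itself did not count epithelial markers against parathyroid ones. Its markers Pth and Chga made up 16.6% and 4.18% of the UMIs of the conventional cells. In the other classes Herpud1 was 314 and 409 CPM in pericytes, 266 and 256 in smooth muscle, 304 and 257 in blood endothelium, 308 and 192 in lymphatic endothelium, 275 and 357 in Schwann cells, 186 and 174 in neutrophils and 560.4 and 449 in phagocytes.
Sel1l, the adaptor of the ubiquitin ligase, was 90.3 and 74.5 CPM in fibroblasts, 58.4 and 55.9 in pericytes, 76.3 and 53.9 in smooth muscle, 54.1 and 49.3 in blood endothelium, 79.2 and 49.6 in lymphatic endothelium, 91.3 and 93.9 in Schwann cells, 30.8 and 25.6 in neutrophils and 95.3 and 102 in phagocytes. Syvn1, that ligase, was 24.4 and 30.1 CPM in fibroblasts, 25.9 and 40.3 in pericytes, 18.3 and 22.2 in smooth muscle, 21.4 and 25.2 in blood endothelium, 26.3 and 28.6 in lymphatic endothelium, 27.0 and 33.1 in Schwann cells, 18.5 and 13.8 in neutrophils and 20.9 and 44.9 in phagocytes. Edem1, a mannosidase-like protein that hands over misfolded glycoproteins, was 36.9 and 46.2 CPM in fibroblasts, 31.7 and 44.8 in pericytes, 37.9 and 33.2 in smooth muscle, 41.2 and 44.6 in blood endothelium, 27.4 and 34.7 in lymphatic endothelium, 40.5 and 50.1 in Schwann cells, 69.9 and 67.1 in neutrophils and 93.0 and 170.0 in phagocytes. No-Touch phagocytes were the highest for all 3, and the Pth-high cells, the highest for Herpud1, were the lowest for Edem1 at 18.0.

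The stress sensors and their factors differed widely in level. Ddit3, which encodes CHOP, was 378 and 557 CPM in fibroblasts, 1030.3 and 1012 in pericytes, 574 and 369 in smooth muscle, 195 and 185 in blood endothelium, 229 and 154 in lymphatic endothelium, 384 and 472 in Schwann cells, 561 and 375 in neutrophils and 426 and 346 in phagocytes. It was 834 in the Pth-high cells, 277 in mesothelial and 298 in T or NK cells. Pericytes were thus the highest class for CHOP in both libraries and both endothelial classes the lowest. Atf4, the factor translated when PERK is active, was 307 and 435 CPM in fibroblasts, 432 and 540.5 in pericytes, 361 and 391 in smooth muscle, 429 and 391 in blood endothelium, 429.8 and 453 in lymphatic endothelium, 382 and 516 in Schwann cells, 403 and 617 in neutrophils and 579 and 649.8 in phagocytes. It varied least of the 34, with the highest combination 2.13-fold above the lowest.
Xbp1, whose RNA is spliced by IRE1, was 253 and 343 CPM in fibroblasts, 229.7 and 339 in pericytes, 187 and 179.9 in smooth muscle, 439.9 and 436 in blood endothelium, 217 and 194 in lymphatic endothelium, 232 and 344 in Schwann cells, 177 and 209 in neutrophils and 281 and 474 in phagocytes. Counts do not separate its spliced from its unspliced form. Blood endothelial cells and No-Touch phagocytes were the highest for Xbp1. Atf6, the membrane-held factor, was 39.8 and 35.6 CPM in fibroblasts, 43.3 and 50.5 in pericytes, 43.7 and 36.5 in smooth muscle, 43.5 and 40.6 in blood endothelium, 45.5 and 36.5 in lymphatic endothelium, 33.4 and 34.3 in Schwann cells, 27.4 and 35.5 in neutrophils and 74.4 and 102 in phagocytes, and its highest value was in the No-Touch phagocytes.
The 2 sensor kinases and Trib3 were near the lower end of what was measured. Ern1, encoding IRE1, was 11.5 and 11.9 CPM in fibroblasts, 9.97 and 8.26 in pericytes, 11.1 and 10.5 in smooth muscle, 29.0 and 18.5 in blood endothelium, 14.0 and 8.16 in lymphatic endothelium, 5.79 and 8.34 in Schwann cells, 4.11 and 11.8 in neutrophils and 18.6 and 17.7 in phagocytes, and T or NK cells were the highest at 43.5. Eif2ak3, encoding PERK, was 7.99 and 18.5 CPM in fibroblasts, 5.38 and 4.76 in pericytes, 4.50 and 7.70 in smooth muscle, 6.55 and 11.7 in blood endothelium, 8.50 and 12.0 in lymphatic endothelium, 14.8 and 29.4 in Schwann cells, 7.53 and 11.8 in neutrophils and 11.6 and 21.8 in phagocytes. Trib3, a pseudokinase induced by CHOP and ATF4, was 6.29 and 4.25 CPM in fibroblasts, 3.79 and 4.45 in pericytes, 5.56 and 1.65 in smooth muscle, 26.1 and 13.9 in blood endothelium, 32.1 and 28.3 in lymphatic endothelium, 7.07 and 3.71 in Schwann cells, 3.42 and 9.86 in neutrophils and 18.6 and 12.4 in phagocytes. Trib3 was highest in lymphatic and conventional blood endothelium, the classes in which Ddit3 was lowest. The fewest UMIs behind a value were 6 for Ern1, 5 for Eif2ak3 and 4 for Trib3.

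The members were set against the secretory load of each class. Load was taken as the share of a class's UMIs in 210 genes for secreted proteins, 24 of them collagens. It was 14.0 and 15.1% in fibroblasts, 8.88 and 8.20% in smooth muscle, 7.52 and 9.08% in neutrophils, 6.52 and 6.35% in pericytes, 5.32 and 5.26% in Schwann cells, 4.40 and 5.64% in lymphatic endothelium, 3.11 and 4.21% in blood endothelium, 4.93 and 3.44% in phagocytes and 1.84% in T or NK cells. Mesothelial cells had 8.53%, and the Pth-high cells, which were chosen on cargo genes, had 22.7%, of which Pth made up 16.6% of all UMIs. The leading cargo differed by class: Cxcl2, a chemokine, led in neutrophils, Ccl21a in lymphatic endothelium, Col3a1 and Dcn in fibroblasts.

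The 34 members together made up 14219.6 and 13297 CPM in phagocytes and 13679 and 15017 in fibroblasts, which carry a much larger load. They made up 12008 and 14687 in pericytes, 11280.3 and 8552 in smooth muscle, 10428 and 9848 in blood endothelium, 8859 and 11847 in Schwann cells, 8262 and 6978 in lymphatic endothelium and 6443 and 6325 in neutrophils. Across the 18 combinations other than the Pth-high cells, Spearman's rho between the summed members and the cargo share was 0.15 (Pearson's r 0.32), and between the BiP group and the cargo share 0.12 (r 0.18). Between the summed members and the collagen share it was 0.65 (r 0.61). Between Serpinh1, Ppib and Fkbp10 together and the cargo share it was 0.42 (r 0.67), and with the collagen share 0.93 (r 0.92). These are descriptions, since the points share their libraries, depth and free RNA. Over the 13 points without the leukocyte classes, rho for the summed members was 0.53 with the cargo share and 0.80 with the collagen share. For the collagen-folding group and the collagen share it was 0.96 there, and for the BiP group and cargo 0.47. Within the conventional library alone the value of the collagen-folding group with collagens was 0.97 and within the No-Touch library 0.90.

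**Figure D2:**
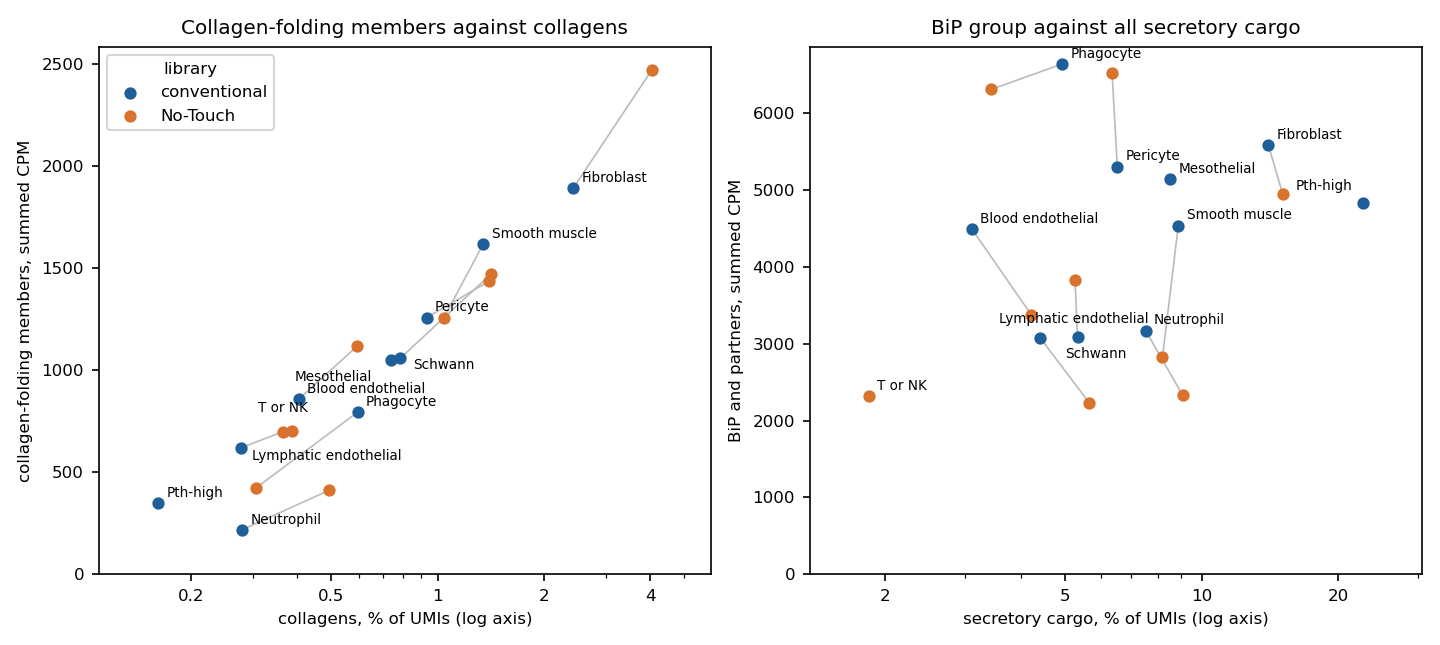
Left, summed CPM of Serpinh1, Ppib and Fkbp10 against the share of UMIs in collagens; right, summed CPM of BiP and its 6 partners against the share in all secretory cargo. Each point is a class in a library, grey lines join the libraries of a class, and the horizontal axes are logarithmic. Points follow a rising line on the left (rho 0.93 without the Pth-high point) and scatter on the right.

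The same was measured among fibroblasts, the class with the most cells. In 21 combinations of expression cluster and library with at least 50 fibroblasts, the collagen share ran from 1.17% to 6.25% and Serpinh1 from 714 to 2376 CPM. The rho of the collagen-folding group with the collagen share was 0.92 (r 0.91), that of the disulfide isomerases 0.86 (r 0.85) and that of the BiP group -0.27 (r -0.42). Hspa5 ran from 2320.4 to 5756 CPM over the same combinations, and was lowest in cluster 6 of the conventional library, which had the second highest collagen share. The clusters were made from all genes, so these values describe them and test nothing.

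Within a class, cells were then ordered by their own cargo share and cut into 4 equal load groups, and the CPM of the members was taken over the UMIs outside the cargo list. The shares of all genes given beside the load-group counts are likewise of genes outside the cargo list. In fibroblasts the highest load group had 2743 against 1732 CPM for the collagen-folding group in the conventional library, and 3610.1 against 2117 in the No-Touch library. The BiP group stood at 6226 against 6669 and at 5843 against 5879. From the lowest to the highest group Serpinh1 went from 1156 to 1835 and from 1313 to 2359, Fkbp10 from 76.5 to 125 and from 89.3 to 179, and Ppib from 500.2 to 783 and from 714 to 1073 CPM. At least 1.5 times more was seen for 3 of 33 members in the conventional library, beside 7.61% of all genes, and for 6 of 33 beside 4.71% in the No-Touch library. Lower by that much were 0 members in both, beside 3.92% and 2.42%. The median cell of the highest group also had more UMIs than that of the lowest (25542 against 16612, and 41315 against 24328), and with every cell thinned to 3000 UMIs 4 and 5 of 33 were higher, beside 9.59% and 5.92% of all genes. With the CPM taken over all UMIs, cargo included, 0 conventional and 2 No-Touch members passed, beside 4.73% and 2.82%, so the counts depend on leaving the cargo out of the total.

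In mural cells, which join pericytes and smooth muscle, 10 of 32 members were at least 1.5 times higher in the highest load group of each library, beside 13.3% and 17% of all genes, and 0 were lower, beside 10.5% and 10.3%. Fkbp10 went from 35.0 to 123 and from 47.8 to 132, Txndc5 from 39.1 to 93.7 and from 56.8 to 156, and P4hb from 145 to 295 and from 138 to 307 CPM. Smooth muscle cells had a larger cargo share than pericytes, 8.88 and 8.20% against 6.52 and 6.35%. Their median cell also had more UMIs, 14001 and 18332.5 against 8464 and 12719.5. The mural load groups can therefore differ in their mix of these classes, and the part of that mix was not tested. The median cell of the highest mural group had more UMIs than that of the lowest (14541.5 against 7607, and 20200 against 12581). With every cell thinned to 3000 UMIs, 10 and 12 of 32 mural members were higher, beside 18.9% and 25.3% of all genes. Lower were then 1 and 0, beside 14.6% and 17.8%. In blood endothelial cells 4 of 33 conventional and 15 of 34 No-Touch members were higher, beside 14.4% and 27.6%, and 2 and 1 were lower, beside 3.99% and 14.3%. Serpinh1 went from 362 to 776 and from 326 to 1161 and Txndc5 from 22.6 to 60.8 and from 30.4 to 744 CPM. Of the 98 cells in the highest No-Touch load group, 48 held at least 3 UMIs of Cytl1, a secreted cytokine-like protein, out of 56 such cells in the class, and these 48 carried 1455 of the group's 1929 Txndc5 UMIs. With all blood endothelial cells of at least 3 Cytl1 UMIs left out, 3 of 33 conventional and 14 of 34 No-Touch members were higher, beside 13.8% and 23.9% of all genes. Xbp1 went the other way in both libraries, from 581 to 349.7 and from 585 to 267. In lymphatic endothelial cells, whose leading cargo is the chemokine Ccl21a, 2 of 33 and 1 of 34 were higher, beside 12.9% and 14.9%, and 1 was lower in each, beside 9.57% and 14.4%. With every cell thinned to 3000 UMIs, 8 and 3 of 34 lymphatic members were higher, beside 26.3% and 28.5% of all genes, and 2 and 8 lower, beside 20.8% and 26%. With collagens alone as the load the counts of higher members were 10 and 9 in fibroblasts, beside 11.7% and 10.3% of all genes, and 13 and 24 in mural cells, beside 15.1% and 20.9%. They were 13 and 18 in blood endothelium, beside 26.9% and 27.9%, and 3 and 5 in lymphatic endothelium, beside 14.6% and 17%.

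**Figure D3:**
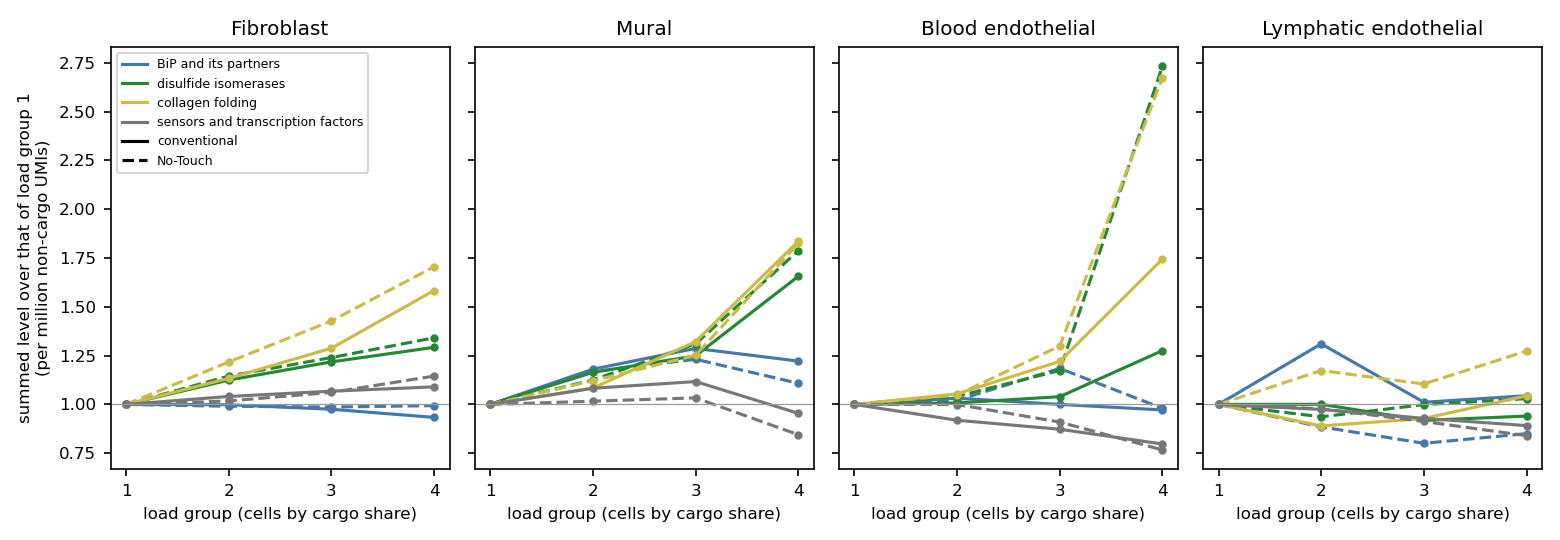
Summed CPM (over UMIs outside the cargo list) of 4 role groups, in 4 equal groups of cells ordered by cargo share, divided by the level in load group 1 (solid, conventional; dashed, No-Touch). The collagen-folding line climbs with load in fibroblasts, mural and blood endothelial cells, and the BiP line stays near 1 in fibroblasts.

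Between the libraries, classes with at least 50 cells in both were compared. A member was counted where its CPM + 1 was at least 1.5 times apart and it reached 10 CPM in either library, and ratios are No-Touch over conventional with intervals at 95% for counting error only. A repeated feature was the higher level of Ost4 and Pdia3 in the No-Touch library. Ost4 was higher by 1.5 times or more in 7 of the 8 classes (not in phagocytes) and Pdia3 in 6 of 8 (not in lymphatic endothelium or smooth muscle), with medians of 2.38 and 1.94 over the classes. No member passed in all 8 classes, where 31 members and 5257 genes could be compared and 30 genes were higher and 18 lower throughout. The 8 classes share the same 2 libraries, so their agreement is no replicate. Hspa5 was below its conventional level in 6 of the 8 classes and above it in pericytes and Schwann cells, but in phagocytes its log2 ratio turned from -0.05 to 0.03 and 0.04 with median-of-ratios and TMM scaling. The median of all genes shifted by over 0.1 with median-of-ratios scaling in neutrophils (-0.14), mural cells (-0.13), blood endothelium (-0.13) and pericytes (-0.11), and each class median of all genes is given beside that of the members.

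**Figure D4:**
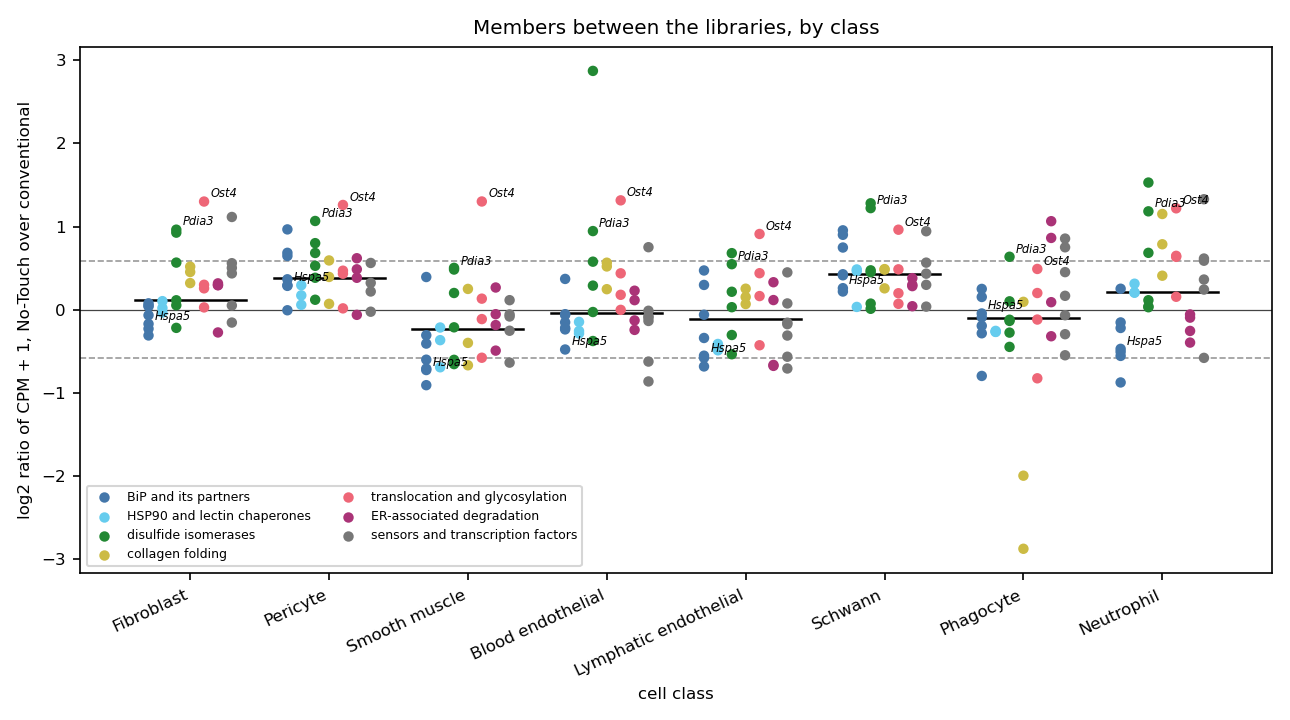
Log2 ratio of CPM + 1, No-Touch over conventional, of each member of at least 10 CPM in 8 cell classes (x axis), coloured by role; black bars are medians, dashed lines mark 1.5 times. Ost4 and Pdia3 lie above 0 in every class, and the medians run from -0.23 in smooth muscle to 0.43 in Schwann cells.

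In fibroblasts, 4 of 33 members were higher and 0 lower, beside 7.04% and 3.16% of all genes, and the median log2 ratio was 0.11 against 0.05. Ost4 stood at 133 and 329.9 CPM, a ratio of 2.47 (2.44 to 2.51), Pdia3 at 420.3 and 819.9, a ratio of 1.95 (1.93 to 1.97), and Txndc5 at 97.0 and 185, a ratio of 1.91 (1.87 to 1.95). The fourth was Eif2ak3, at 7.99 and 18.5. Below the limit were Pdia4 (1.49), Ddit3 (1.47), Ppib (1.43) and Atf4 (1.42). The collagen share was 2.42 and 4.05%, so the collagens, of which 12 of 20 measured were higher, stood further apart than Serpinh1 (1.25, 1.24 to 1.25). Although the libraries filled mostly different expression clusters, Pdia3 and Ost4 were higher in the No-Touch library within each of the 9 clusters with at least 50 fibroblasts of both, by 1.5 to 2.24 times and 1.93 to 3.42 times.

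Pericytes, the cells around small vessels, and contractile smooth muscle cells lay on opposite sides. In pericytes, 9 of 31 members were higher and 0 lower, beside 10.6% and 4.48% of all genes, and the median log2 ratio was 0.38 against 0.08. The 9 were Ost4 (2.42, 2.10 to 2.78), Pdia3 (2.10, 1.96 to 2.25), Sdf2l1, Txndc5, Hyou1, Pdia4, Dnajb11, Syvn1 and Fkbp10. Sdf2l1 stood at 39.7 and 78.4 CPM, a ratio of 1.98 (1.63 to 2.39), Hyou1 at 25.5 and 41.6, and Pdia4 at 58.0 and 93.7. Hspa5 itself was at 4357 and 5345, a ratio of 1.23 (1.2 to 1.25). Of the 31 members 28 lay above 0 (25 with TMM or median-of-ratios scaling), beside 59.9% of all genes as scaled here. With scaling by TMM or by the median of ratios, 4 of the 9 stayed past the limit. The median of all genes shifted by -0.11 with each, and the share of all genes past the limit there is not given.

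In contractile smooth muscle, 1 of 32 members was higher and 9 lower, beside 14.2% and 12.1% of all genes, and the median log2 ratio was -0.23 against 0.05. Ost4 was the 1 higher member (2.48, 2.23 to 2.75). The lower ones were Hspa5 at 3618 and 2185 CPM, a ratio of 0.604 (0.589 to 0.619), Hsp90b1 at 1095 and 677 (0.618, 0.591 to 0.646), Manf at 431 and 263, Sdf2l1 at 38.4 and 20, Serpinh1 at 1116 and 701, and Creld2, Ddit3, Pdia6 and Dnajc3 with ratios of 0.627, 0.642, 0.656 and 0.657. The gated cells were not spread alike: cluster 11, which also holds the pericytes, had 60.5% of the conventional and 25.9% of the No-Touch cells, and cluster 15 had 36.0% and 73.0%. Their 6 pericyte markers summed to 1655 CPM in conventional and 1031 in No-Touch cells. Within cluster 11, with 138 and 71 cells, 11 of 31 members were lower and 1 higher, beside 12% and 18.2% of all genes, and Hspa5 stood at 5212 and 2625 CPM. Within cluster 15, with 82 and 200 cells, 4 of 32 were lower and 2 higher, beside 10.8% and 16.3%, and Hspa5 stood at 2427 and 2095. With clusters in place of the gate, so that the class was all of cluster 15, 0 members were lower and Hspa5, Hsp90b1 and Creld2 had log2 ratios of 0.05, 0.03 and 0.01. The count of lower members thus differed between the gate and the whole cluster, which held 159 and 312 cells. The share of all genes that were lower in that setting is not given, and the reason for the difference was not tested.

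Pooled as mural cells, with those that the finer gate left in neither class, 1065 conventional and 641 No-Touch cells were compared. There, 3 of 32 members were higher and 0 lower, beside 10.9% and 6.1% of all genes, and the median log2 ratio was 0.01 against 0.07. The 3 were Ost4, Pdia3 and Txndc5. The median turned to -0.11 with median-of-ratios scaling.

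In blood endothelial cells, 4 of 34 members were higher and 2 lower, beside 12.5% and 6.49% of all genes, and the median log2 ratio was -0.04 against 0.06. Txndc5, a member of the isomerase family, stood at 32.2 and 242 CPM, a ratio of 7.52 (6.75 to 8.40). It was highest in the 56 No-Touch cells with at least 3 UMIs of Cytl1, in which Txndc5 was at 921 CPM. In the cells with 0 Cytl1 UMIs it was 30.6 CPM for the conventional and 86.4 for the No-Touch library, and only 14 conventional cells held 3 or more. The same 56 cells had Serpinh1 at 1068 against 489 CPM, Pdia3 at 779 against 513, and Hspa5 at 2147 against 2703. This split was made after the values were seen. Ost4 (2.5, 2.33 to 2.69), Pdia3 (1.93, 1.85 to 2.01) and Eif2ak3 were the other higher members. Trib3 at 26.1 and 13.9 and Ern1 at 29.0 and 18.5 were lower. Hspa5 was at 3629 and 2601 (0.717, 0.705 to 0.728), short of the limit. The gated cells were not spread alike here either: cluster 13 held 98.6% of the conventional and 81.4% of the No-Touch cells, and cluster 21 held 18.4% of the No-Touch cells. The 10 mural markers summed to 239 and 563 CPM in the class. Within cluster 13, with 835 and 319 cells, 3 of 34 members were higher and 2 lower, beside 9.15% and 4.91% of all genes. Serpinh1 stood there at 478 and 409 CPM, against 505 and 599 in the class, and Txndc5 at 26.1 and 38.1, both short of the limit there. The collagen share was 0.400% and 0.425% in the cluster and 0.403 and 0.593% in the class. The part of the mural markers was not tested.

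In lymphatic endothelial cells, 2 of 34 members were higher and 4 lower, beside 9.61% and 7.17% of all genes, and the median log2 ratio was -0.11 against 0.00. Ost4 (1.89, 1.68 to 2.11) and Txndc5 (1.63, 1.22 to 2.19) were higher. Herpud1 at 308 and 192 CPM, Sel1l at 79.2 and 49.6, Sdf2l1 at 20.3 and 12.2 and Ern1 at 14.0 and 8.16 were lower, with ratios of 0.624 (0.566 to 0.688), 0.626 (0.515 to 0.759), 0.604 (0.403 to 0.893) and 0.584 (0.355 to 0.944). Hspa5 (0.681), Manf (0.667), Ddit3 (0.674), Pdia6 (0.687) and Hsp90b1 (0.712) lay just inside the limit. As scaled here 16 of 34 members lay above 0, near the 50.3% of all genes. With median-of-ratios scaling, 8 members were lower, while the median of all genes shifted by -0.06. The share of all genes that were lower in that setting is not given.

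In Schwann cells, the glia of peripheral nerves, 7 of 32 members were higher and 0 lower, beside 12.7% and 7.94% of all genes, and the median log2 ratio was 0.43 against 0.07. All 32 members tested lay above 0 (28 with TMM or median-of-ratios scaling), beside 57.5% of all genes. Pdia4 stood at 91.9 and 225 CPM, a ratio of 2.44 (2.04 to 2.94), Pdia3 at 318 and 744, a ratio of 2.34 (2.12 to 2.58), and Ost4 at 109.9 and 215. Hyou1 (1.98, 1.33 to 3.04), Eif2ak3 (1.99, 1.25 to 3.28), Sdf2l1 (1.88, 1.48 to 2.42) and Dnajb9 (1.69, 1.34 to 2.15) were the others. Hspa5 was at 2315 and 2769, a ratio of 1.2 (1.15 to 1.24). The cells of both libraries lay in the same cluster, 96.8% and 99% of them, and their collagen share was 0.784 and 1.41%. The part of free RNA was not tested.

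The 2 leukocyte classes had few UMIs, and a larger share of all genes passed the limit in them than in the other classes. In neutrophils, 11 of 33 members were higher and 1 lower, beside 23.3% and 16.6% of all genes, and the median log2 ratio was 0.21 against 0.08. Txndc5, Ost4, Pdia3, Ppib, Serpinh1, Sec61b, Ssr1 and Atf4 were among the higher, from 3.05 for Txndc5 (11.6 and 35.5 CPM) to 1.53 for Atf4 (403 and 617), with Pdia4, Ern1 and Eif2ak3 at under 14 CPM in both libraries. The intervals of Ssr1, Pdia4, Ern1 and Eif2ak3 spanned 1. The 10 fibroblast markers summed to 184 and 309.6 CPM in these cells, and their part was not tested. Dnajb9 was the lower member, at 225 and 122 (0.543, 0.407 to 0.714). With TMM or median-of-ratios scaling 6 were higher and 5 lower, so the balance of directions rests on the scaling. The median of all genes shifted by -0.12 and -0.14 with these, and the share of all genes past the limit there is not given. In mononuclear phagocytes, 5 of 34 members were higher and 4 lower, beside 20.3% and 21% of all genes, and the median log2 ratio was -0.11 against -0.01. Fkbp10 at 62.8 and 7.67 CPM (0.122, 0.0579 to 0.245) and Serpinh1 at 446 and 111 (0.249, 0.202 to 0.305) were lower, but Serpinh1 rests on the 3 conventional cells named above and had a log2 ratio of 0.12 when each cell weighed the same. Dnajc3 at 181 and 104 and Sec61a1 at 102 and 57.2 were the other lower members. Syvn1 (2.14, 1.07 to 4.87), Edem1 (1.83, 1.31 to 2.61), Eif2ak3 (1.88, 0.736 to 6.12), Xbp1 (1.68, 1.39 to 2.06) and Pdia3 (1.56, 1.30 to 1.88) were higher, the interval of Eif2ak3 spanning 1.

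**Figure D5:**
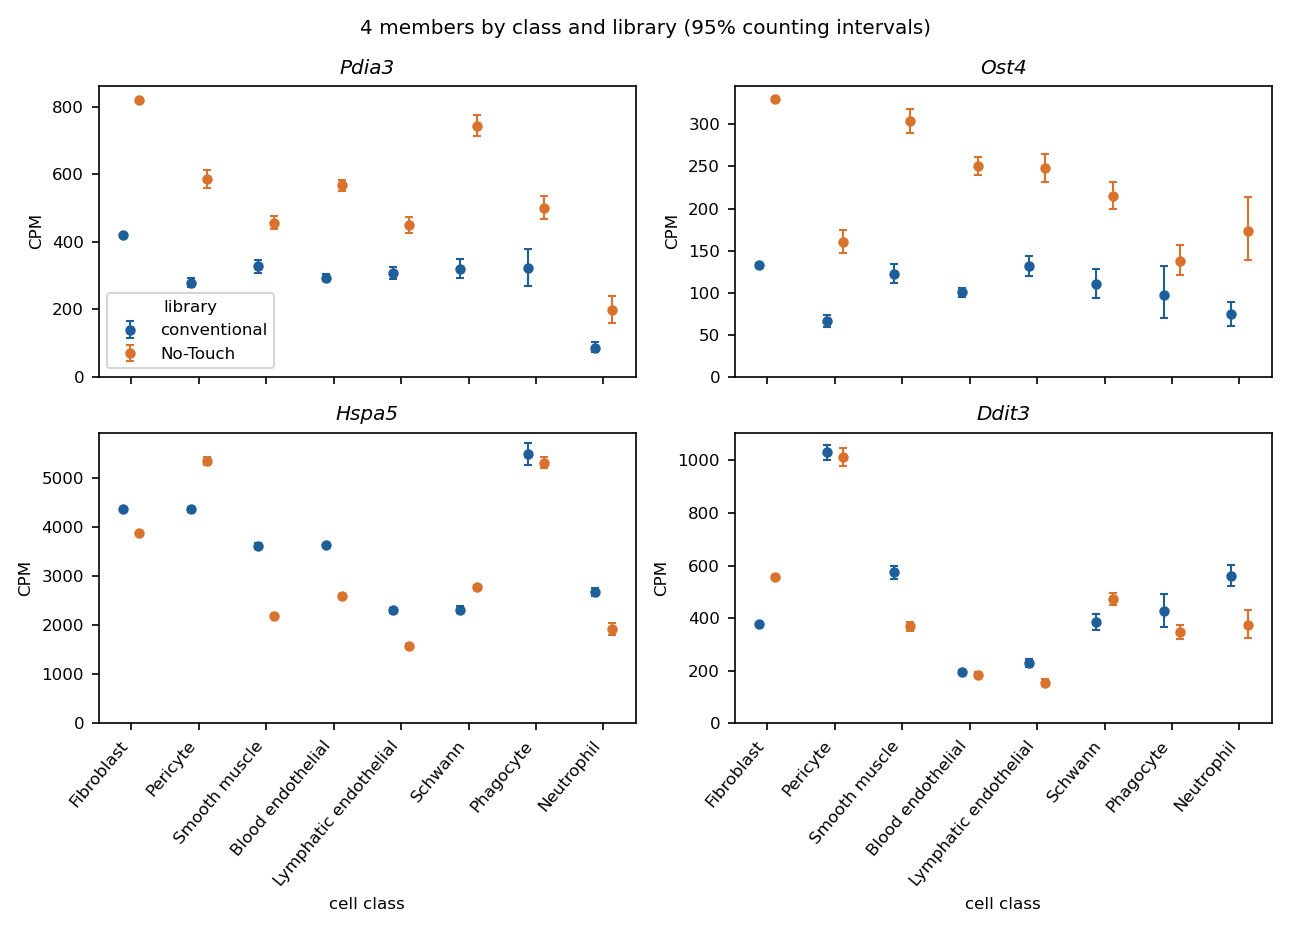
CPM of Pdia3, Ost4, Hspa5 and Ddit3 in 8 cell classes, conventional in blue and No-Touch in orange, with 95% counting intervals. The No-Touch points of Pdia3 and Ost4 lie above the conventional ones in every class, while those of Hspa5 lie on either side and Ddit3 is highest in pericytes in both libraries.

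The 10 members with an ERSE or ERSE-II match had a lower median ratio than the 16 to 19 tested members without one, in each class. The median log2 ratios with and without a match were 0.03 and 0.38 in fibroblasts, 0.34 and 0.45 in pericytes, -0.51 and -0.06 in smooth muscle, -0.20 and 0.25 in blood endothelium, -0.44 and 0.16 in lymphatic endothelium, 0.33 and 0.48 in Schwann cells, -0.19 and 0.09 in phagocytes and -0.03 and 0.62 in neutrophils. In smooth muscle, blood and lymphatic endothelium 1 of the 10 lay above 0, beside 54.2%, 56.4% and 50.3% of all genes. Of the members without a match 8 of 17, 12 of 19 and 13 of 19 did so there. In pericytes 9 of the 10 lay above 0, beside 14 of 16 without a match and 59.9% of all genes. In Schwann cells all 10 did, as did 17 of 17 without a match, beside 57.5% of all genes. Ost4 and Pdia3 are among the members without a match. These groups were formed after the ratios were known and hold few genes, so the medians are a description.

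Neighbouring pathways from lists drawn up beside the members were compared in the same way, with the shares of all genes beside the counts. Other translocon and oligosaccharyltransferase genes, 29 in all, had 0 of 29 higher and 0 lower (median log2 ratio 0.22) in fibroblasts, beside 7.04% and 3.16% of all genes. In pericytes 3 of 29 were higher and 0 lower (median log2 ratio 0.22), beside 10.6% and 4.48%. In smooth muscle 0 of 29 were higher and 0 lower (median log2 ratio 0.07), beside 14.2% and 12.1%. In blood endothelium 3 of 29 were higher and 0 lower (median log2 ratio 0.23), beside 12.5% and 6.49%. Ost4 passed the limit in each of these classes. It also passed in neutrophils, where 9 of 26 list genes were higher and 0 lower (median log2 ratio 0.41), beside 23.3% and 16.6%. It passed too in Schwann cells, with 3 of 29 higher and 0 lower, beside 12.7% and 7.94%. In lymphatic endothelium, a further such class, 1 of 29 was higher and 1 lower, beside 9.61% and 7.17%. Phagocytes, where Ost4 fell short, had 2 of 29 higher and 7 lower, beside 20.3% and 21%. Tmem258, another small subunit of the complex, was at 46.7 and 99.2 CPM in blood endothelium, and in fibroblasts the catalytic subunit Stt3a stood at 49.4 and 70.5 CPM. Enzymes of collagen modification and export had 5 of 30 higher and 0 lower (median log2 ratio 0.28) in fibroblasts, beside 7.04% and 3.16%. Fkbp7 stood there at 101 and 182 CPM and the retrieval receptor Kdelr3 at 78.4 and 136. In smooth muscle 0 of 31 were higher and 6 lower (median log2 ratio -0.05), beside 14.2% and 12.1%. Blood endothelium had 9 of 31 higher and 1 lower, beside 12.5% and 6.49%, and neutrophils 9 of 26 and 1, beside 23.3% and 16.6%. Phagocytes had 0 of 28 higher and 13 lower, beside 20.3% and 21%. Lymphatic endothelium had 6 of 28 of these enzymes higher and 0 lower, beside 9.61% and 7.17%. Schwann cells had 5 of 31 and 1, beside 12.7% and 7.94%, and pericytes 4 of 31 and 1, beside 10.6% and 4.48%. Other quality-control genes had 2 of 29 higher and 0 lower (median log2 ratio 0.02) in fibroblasts, beside 7.04% and 3.16%. In pericytes 0 of 30 were higher and 0 lower (median log2 ratio 0.04), beside 10.6% and 4.48%. Neutrophils had 7 of 26 higher and 2 lower, beside 23.3% and 16.6%, and phagocytes 3 of 28 and 6, beside 20.3% and 21%. Blood endothelium had 5 of 29 of these genes higher and 0 lower, beside 12.5% and 6.49%, and lymphatic endothelium 5 of 30 and 1, beside 9.61% and 7.17%. Smooth muscle had 1 of 30 higher and 1 lower, beside 14.2% and 12.1%, and Schwann cells 1 of 29 and 0, beside 12.7% and 7.94%.

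Targets of ATF4 in the integrated stress response had 1 of 15 higher and 0 lower (median log2 ratio 0.06) in fibroblasts, beside 7.04% and 3.16% of all genes. In smooth muscle 3 of 17 were higher and 6 lower (median log2 ratio -0.24), beside 14.2% and 12.1%. In blood endothelium 3 of 18 were higher and 8 lower (median log2 ratio -0.47), beside 12.5% and 6.49%. Schwann cells had 2 of 18 higher and 3 lower, beside 12.7% and 7.94%, and phagocytes 4 of 16 and 5, beside 20.3% and 21%. Neutrophils had 3 of 14 and 1, beside 23.3% and 16.6%. Pericytes had 1 of 13 and 0, beside 10.6% and 4.48%, and lymphatic endothelium 0 of 15 and 2, beside 9.61% and 7.17%. Asns, asparagine synthetase, was at 36.6 and 4.95 CPM in smooth muscle and 44.1 and 20.6 in blood endothelium, and Cebpb, a transcription factor, at 479 and 964 in fibroblasts. A list of 19 chaperones outside the reticulum, which answer to heat shock, holds mostly those of the cytosol. Hspd1 and Hspe1 on it are mitochondrial. These chaperones had 0 of 19 higher and 2 lower (median log2 ratio -0.34) in fibroblasts, beside 7.04% and 3.16% of all genes. In pericytes 0 were higher and 4 lower (median log2 ratio -0.24), beside 10.6% and 4.48%. In smooth muscle 0 were higher and 3 lower (median log2 ratio -0.29), beside 14.2% and 12.1%. In Schwann cells 0 were higher and 4 lower (median log2 ratio -0.19), beside 12.7% and 7.94%. In neutrophils 1 was higher and 5 lower (median log2 ratio -0.23), beside 23.3% and 16.6%. In phagocytes 0 were higher and 5 lower (median log2 ratio -0.38), beside 20.3% and 21%. In blood endothelium 1 was higher and 2 lower (median log2 ratio -0.18), beside 12.5% and 6.49%. In lymphatic endothelium 3 were higher and 1 lower (median log2 ratio -0.07), beside 9.61% and 7.17%. Their medians were below 0 in each class, including those where the members' median was above it, and under each scaling. Hspb1 stood at 1084 and 425 CPM in fibroblasts and 559 and 139.7 in Schwann cells, and Hsp90aa1 at 2755 and 479 in neutrophils. In lymphatic endothelium Hspa1a at 894 and 1811, Hspa1b at 1216 and 1974 and Hsp90aa1 at 927 and 1573 were the higher ones, and in blood endothelium Hspa1a at 531 and 951. Immediate early genes, which change with handling, had 11 of 20 higher and 0 lower (median log2 ratio 0.74) in phagocytes, beside 20.3% and 21% of all genes. In neutrophils 8 of 20 were higher and 0 lower (median log2 ratio 0.52), beside 23.3% and 16.6%. In lymphatic endothelium 7 of 20 were higher and 2 lower (median log2 ratio 0.46), beside 9.61% and 7.17%. In blood endothelium 6 of 20 were higher and 1 lower (median log2 ratio 0.29), beside 12.5% and 6.49%. In smooth muscle 4 of 20 were higher and 0 lower (median log2 ratio 0.39), beside 14.2% and 12.1%. These genes had 4 of 20 higher and 0 lower (median log2 ratio 0.07) in fibroblasts, beside 7.04% and 3.16%, with Myc at 103 and 256 and Zfp36 at 1708 and 3308. In pericytes 3 of 20 were higher and 3 lower (median log2 ratio -0.08), beside 10.6% and 4.48%. In Schwann cells 4 of 20 immediate early genes were higher and 3 lower (median log2 ratio -0.03), beside 12.7% and 7.94%. Their part in the members' differences was not tested.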

How the data were processed

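Single-cell RNA was measured in 1 conventional and 1 No-Touch library, grouped by their sample titles. The values deposited by the authors are UMI counts per gene and barcode, made with Cell Ranger 3.1.0 on mm10 per the submitters' processing notes, while the file headers name Cell Ranger 6.0.0. Whether the kit was version 2 or 3 in each library is not settled by the labels. The deposited counts total 200851272 and 373319906 UMIs. Counting error follows the UMIs of a gene in each class and is given by the intervals.

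Barcodes under 500 genes or 1000 UMIs, or above 10% mitochondrial UMIs, were left out, and 241 and 1063 likely doublets were removed by Scrublet scores in scanpy 1.11.5 (Python 3.11.15). The automatic cut marked 0 No-Touch cells, so the share expected from the loading was used there. Cells were gated by marker scores that left out all members. UMIs were summed by class and library and scaled to the total (CPM). A gene was counted as different at 1.5 times or more between values of CPM + 1 where it reached 10 CPM in either library. Intervals are exact Poisson ones at 95% and cover counting error only. With 1 library per group no test was made and no p-value is given. The 4 load groups were cut by each cell's share of UMIs in the cargo list. The counting rule was also run on simulated Poisson counts. These carry no spread between cells, clusters or replicate libraries, so that run cannot vouch for the differences described here. TMM factors came from edgeR 4.0.16.

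The members and all lists were chosen with earlier results of these data known. Values in every class are given for the 8 members with the highest means, for the 6 with the largest ratio in each class among those of at least 20 CPM, and for the sensors and factors. Other pathway genes named are among the 3 with the largest ratio in their class. Alternatives covered scaling, depth, filters, doublets, the gate, the limits and the load measure. Points without leukocytes or of 1 library, the Cytl1 split, the load groups without its Cytl1 cells and the comparison within clusters were added after seeing the data.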

Additional observations from a re-analysis of the deposited data

Results flagged for a closer look

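The following members were at least 1.5 times higher in the No-Touch library in one cell class and at least that much lower in another. The difference between classes was not tested, since each class has 1 library per graft type.

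Sdf2l1, a partner of BiP, had No-Touch over conventional ratios of 1.88 in Schwann cells and 1.98 in pericytes, against 0.604 in lymphatic endothelium and 0.52 in smooth muscle. Dnajb9, a J-domain partner of BiP, had ratios of 1.69 in Schwann cells and 0.543 in neutrophils. Serpinh1, the collagen chaperone, had 1.73 in neutrophils, where it had 46.1 and 45.2 UMIs per 1000 collagen UMIs beside 52.0 and 38.9 in fibroblasts, against 0.249 in phagocytes, where 3 conventional cells carried most of its UMIs, and 0.628 in smooth muscle. Fkbp10, a collagen prolyl isomerase, had 1.52 in pericytes and 0.122 in phagocytes. Ern1, the sensor IRE1, had 2.88 in neutrophils against 0.636 in blood and 0.584 in lymphatic endothelium, but its neutrophil values rest on 6 UMIs in each library and that interval, 0.77 to 10.8, spans 1.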

How the results depend on the processing

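Of 63 pairs of a member and a class counted as different between the libraries, 56 kept their direction in every setting run, and 31 also stayed past the limit under all settings other than the floor and fold ones. Counts that moved by over 1.5 times follow, as members higher or lower in the No-Touch library. The cause was not tested. The share of all genes past the limit can move with the setting too and is not given here. A moved count therefore says nothing about the members against all genes. With a limit of 2 times, the higher counts were 2 in fibroblasts, 2 in Schwann cells, 5 in neutrophils, 1 in phagocytes, 2 in blood endothelium, 0 in lymphatic endothelium and 2 in pericytes, and the lower counts 0 in neutrophils, 2 in phagocytes and 0 in blood endothelium, lymphatic endothelium and smooth muscle. With TMM or median-of-ratios scaling, 6 were higher and 5 lower in neutrophils, and 4 higher in pericytes. With median-of-ratios scaling, and with the mean over cells, 8 were lower in lymphatic endothelium. With every cell thinned to 3000 UMIs, 11 were higher and 1 lower in Schwann cells, 3 lower in neutrophils and 2 higher in smooth muscle. Then Pdia4 turned to a log2 ratio of -0.058 and Eif2ak3 to -0.34 in neutrophils, Eif2ak3 to -0.25 in blood endothelium and Creld2 to 0.054 in smooth muscle. With Leiden clusters, 2 were lower in neutrophils, 1 in phagocytes, 2 in lymphatic endothelium and 0 in smooth muscle, where 3 were higher. Serpinh1 turned to 0.12 in phagocytes, as with the mean over cells (0.12), and in smooth muscle Hspa5 turned to 0.052, Hsp90b1 to 0.032 and Creld2 to 0.012. With a floor of 50 CPM, 6 were higher in neutrophils, 3 in phagocytes and 1 in lymphatic endothelium, and 0 lower in blood and 2 in lymphatic endothelium. With no floor, 1 was lower in Schwann cells and 2 higher in smooth muscle. A pseudocount of 5 CPM left 1 lower in blood and 2 in lymphatic endothelium. The mean over cells gave 2 lower in neutrophils and 2 higher in smooth muscle, and scaling without mitochondrial, ribosomal protein and cargo UMIs 2 higher in smooth muscle. In neutrophils 4 were lower with doublets kept and 2 with the same doublet rule in both libraries. In blood endothelium 1 was lower with a mitochondrial limit of 5% and 1 with a stricter gate.

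The rho of the collagen-folding group was 0.42 with the whole cargo as load, 0.33 with cargo without collagens and 0.86 with Leiden clusters. In the highest load group, counted over all UMIs, 0 conventional and 2 No-Touch fibroblast members were higher, beside 4.73% and 2.82% of all genes outside the cargo list. Of the lymphatic members 1 and 0 were higher, beside 11.4% and 12.2%. With collagens alone as load the counts of higher members were 10 in conventional fibroblasts, beside 11.7%, and 24 in No-Touch mural cells, beside 20.9%. They were 13 in conventional blood endothelium, beside 26.9%, and 5 in No-Touch lymphatic endothelium, beside 17%. Thinned to 3000 UMIs, 8 conventional and 3 No-Touch lymphatic members were higher, beside 26.3% and 28.5%. Not run were thinning, the mitochondrial limit of 5%, the same doublet rule and the stricter gate in phagocytes, with under 50 cells left, and Leiden clusters in pericytes. No paired analysis was possible because each group is 1 library with no replicate number. Depth limits the members of under 20 CPM most, Ern1, Eif2ak3 and Trib3 among them.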

Other observations

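Plasma cells, the antibody-secreting cells, were too few for the comparisons, with 17 conventional and 24 No-Touch cells, but they are the class known for this gene set. Their 34 members summed to 17178 and 26488 CPM, with a cargo share of 33.3 and 26.7%. Hsp90b1 stood at 3108 and 5356 CPM, Txndc5 at 704 and 1039.9, Creld2 at 629 and 876, Xbp1 at 1258 and 1497 and Herpud1 at 1073 and 1877. Each of these pairs lay above the range of the same gene over the 19 combinations described in the report, which ended at 1667 for Hsp90b1, 242 for Txndc5, 110.4 for Creld2, 474 for Xbp1 and 1149 for Herpud1, except that the conventional Herpud1 value lay below the Pth-high cells. Not every role group was highest there in both libraries. The BiP group summed to 5536 and 8219 CPM, beside 6644 and 6313 in phagocytes and 5307 and 6521 in pericytes. It was thus highest in plasma cells in the No-Touch library and not in the conventional one. The collagen-folding group summed to 777 and 1199, beside 1890 and 2469 in fibroblasts. The gate used Jchain, Mzb1, Tnfrsf17, Iglv1, Derl3 and Eaf2. How far these markers themselves select cells with active genes of the reticulum was not tested.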
